A study of Homo sapiens with 2 samples.

Results

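Chromosome 13 is an acrocentric chromosome whose protein-coding genes lie on its long arm, and 58 named genes spread along that arm, from ZMYM2 at the proximal end to CHAMP1 near the distal end, were examined here. They were chosen by the bead signals of these same 2 arrays, on which a stretch of the chromosome had been seen to be lower as a group, so their direction is a description and not a tested finding. All 105 probes that the platform annotation assigns to them were read. PHF11 had no probe named for it, POSTN had probes but none above background, and the other 56 genes were detected on at least 1 array, 52 of them on both. The whole data set held 11352 detected named genes.

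The study compared 2 forms of MHH-ES-1, a long-established cell line grown from a human Ewing sarcoma, a tumour of bone and soft tissue. RNA of the wild-type line was hybridised to 1 Illumina bead array, and RNA of a radiation-adapted derivative, whose short label carries 4 Gy, to 1 other array. The labels do not say how that dose was delivered, how long before RNA extraction it was given, or whether the derivative is 1 clone. Each group had 1 sample, so there were no replicates, no difference has a replicate check, and no test was possible.

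The genes of a chromosome arm have no common function. The members encode general transcription factors and polymerase subunits, DNA replication and repair factors, mitotic proteins, nuclear transport receptors, ubiquitin pathway enzymes, vesicle tethering proteins and mitochondrial enzymes. What they share is their place on the same DNA molecule, and many work in complexes whose other subunits are encoded elsewhere in the genome. The files hold RNA signals alone.

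The arrays had median bead signals of 140.3 (wild type) and 142.4 (radiation-adapted), with 16220 and 17718 probes detected at a detection p-value under 0.01. All 7 Ewing sarcoma markers with a named probe were detected on both arrays, among them CD99 (signals of 4248.1 and 2272.0, wild type first) and NKX2-2 (1943.9 and 6001.3). None of 4 endothelial markers was detected, and of 5 epithelial markers KRT8 was detected, on the wild-type array only. Of 6 leukocyte markers with a probe, 4 were detected on an array, while PTPRC and CD3E were not, and the list's summed signal was 11418.3 in the wild type, of which ITGB2 gave 10563.9, and 1401.4 in the adapted line, of which ITGB2 gave 641.7. Of 5 fibroblast markers 4 were detected on an array, with summed signals of 1340.5 and 2725.2, and they went opposite ways: DCN (554.4 and 126.1) and LUM (319.9 and 129.1) were lower in the adapted line, THY1 (145.5 and 1509.8) and COL1A1 (186.9 and 813.7) higher. The part of these differences in the chromosome 13 values was not tested.

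Signals were background-corrected, quantile-normalized and logged, and every log2 ratio below is the radiation-adapted minus the wild-type value. A gene took its brightest detected probe, and "at least 2-fold" means a log2 ratio of 1 or more in size. Before any normalization, the deposited bead signal of 49 of the 56 members was lower on the radiation-adapted array and that of 7 was higher. After normalization 53 of 56 lay below 0, against 47.3% of all detected genes. At least 2-fold lower were 26 members, beside 10.3% of all genes. None was at least 2-fold higher, beside 12.4% of all genes. The median ratio was -0.88, which is 1.83-fold lower, with the middle 50% of members between -1.37 and -0.50, while the median of all genes was -0.01. Among the 52 members measured on both arrays 24 were at least 2-fold lower and 49 lay below 0, with the same median of -0.88. Since the members were picked for this direction, these shares are given to show its size.

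**Figure D1:**
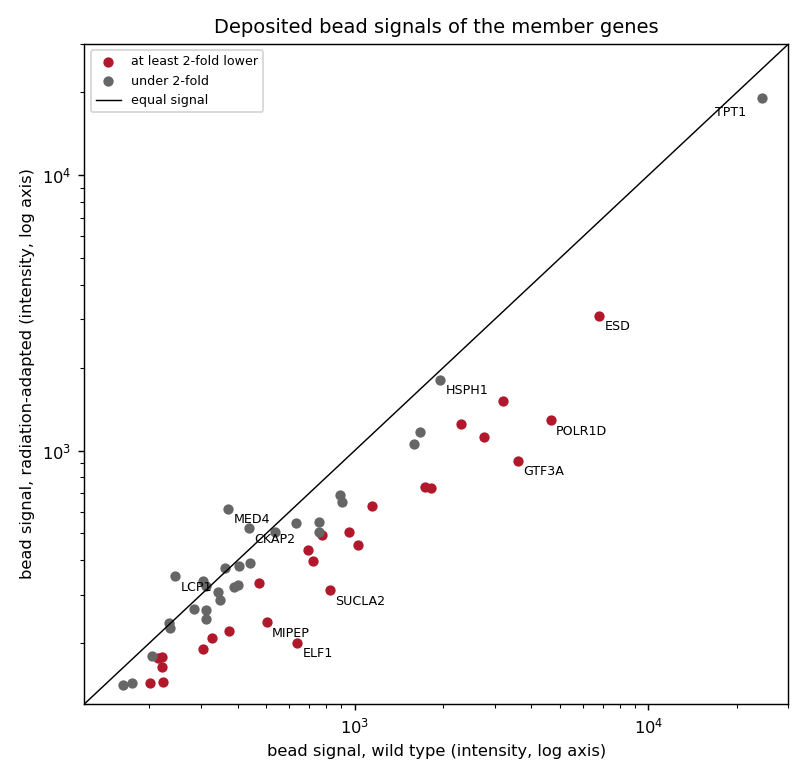
Deposited bead signal of each detected member on the wild-type array (x axis) and on the radiation-adapted array (y axis), both as linear intensity on log axes and before any scaling. The line marks equal signal, and 49 of the 56 points lie below it, with MED4 and LCP1 above it.

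The only spread that these arrays hold is that between different probes of 1 gene. Its SD in the log2 ratio was 0.45 over 2269 genes with several probes measured on both arrays and 0.28 over the 20 members with several. No member had probes measured on both arrays that lay on different sides of 0. In 5 members, POLR1D, HMGB1, TSC22D1, ESD and SUCLA2, every such probe was at least 2-fold lower. In 7 others the probes fell on both sides of the 2-fold line, with the widest gap in CDC16 (from -1.29 to -0.49) and in DIAPH3 (4 probes from -1.47 to -0.74). Over the 77 member probes measured on both arrays, 73 were below 0 and 36 were at least 2-fold lower. Over all detected genes, counted by gene and not by probe, 47.3% lay below 0 and 10.3% were at least 2-fold lower. The members were picked for being lower on these same arrays, so the probe counts are a description. The spread between probes leaves out any difference between cultures and whatever the probes of a gene share, such as labelling. HMGB1 and TPT1 have many processed copies in the genome, and the probes were not checked for sequence shared with such copies.

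**Figure D2:**
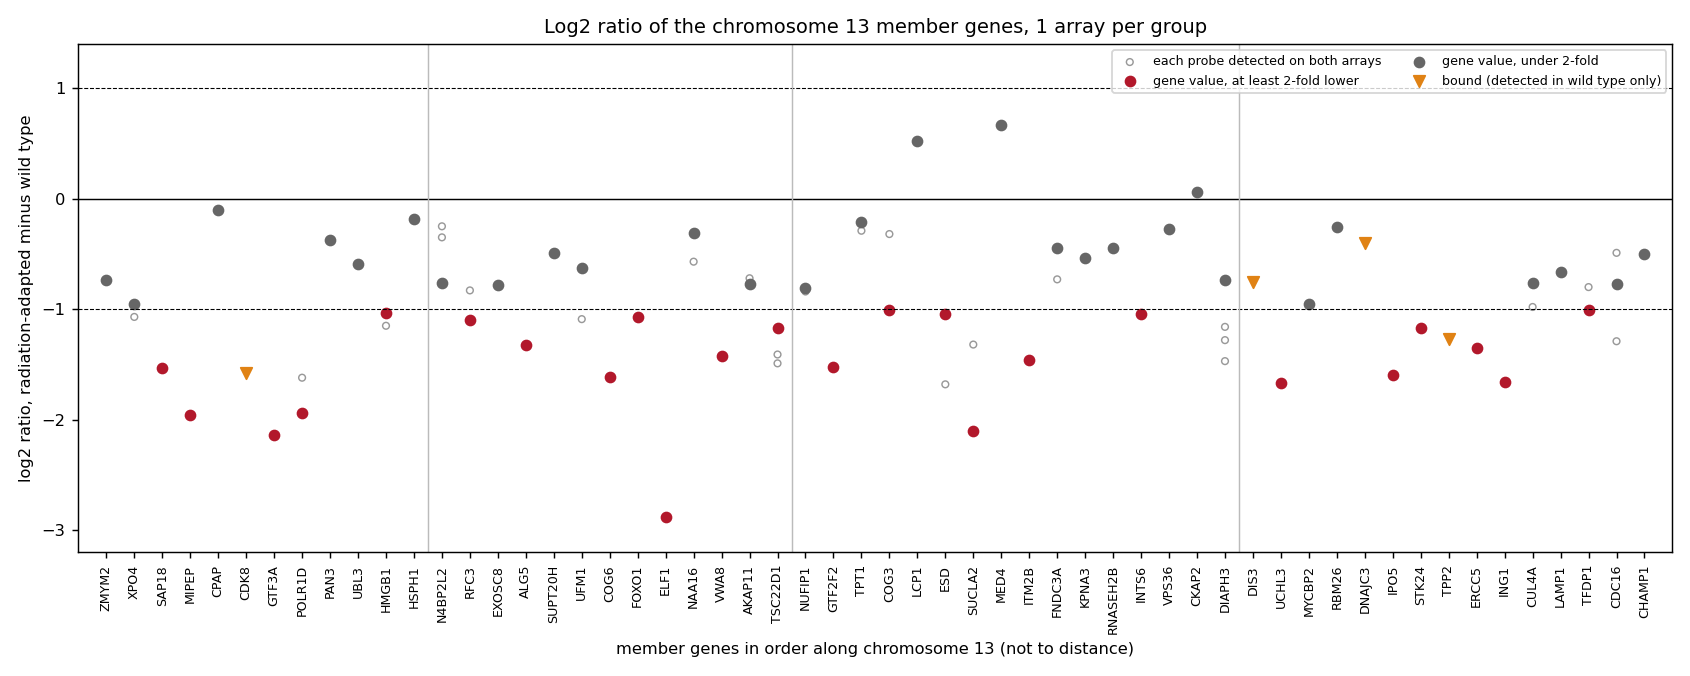
Log2 ratio (y axis) of the 56 detected members in the order of the member list along chromosome 13 (x axis). The list has EXOSC8 before ALG5, and RefSeq has ALG5 first. Filled circles are gene values, open circles single probes, triangles bounds, dashed lines 2-fold and vertical lines the 4 segments described in the text. Values reach from -2.88 at ELF1 to 0.67 at MED4, and 53 of 56 lie below 0.

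To show the regulatory sequence of members at either end of the range, 4 promoter windows are printed, of the low members GTF3A and SUCLA2 and of LCP1 and MED4, the highest members. Each holds 250 bases before and 50 bases from the start site in RefSeq (GRCh38.p14), written 5′ to 3′ on the gene's own strand. Capitals mark matches, on either strand, to the letters searched. The windows lie at chr13:27424369-27424668 on the plus strand for GTF3A, and on the minus strand at chr13:48001224-48001523 for SUCLA2, chr13:46182128-46182427 for LCP1 and chr13:48095055-48095354 for MED4. ELF1 and CKAP2 were also among the 3 members at either end, and their tabulated windows lie 79104 and 510 bases from the 5′ end of the gene, so they are not printed.
GTF3A: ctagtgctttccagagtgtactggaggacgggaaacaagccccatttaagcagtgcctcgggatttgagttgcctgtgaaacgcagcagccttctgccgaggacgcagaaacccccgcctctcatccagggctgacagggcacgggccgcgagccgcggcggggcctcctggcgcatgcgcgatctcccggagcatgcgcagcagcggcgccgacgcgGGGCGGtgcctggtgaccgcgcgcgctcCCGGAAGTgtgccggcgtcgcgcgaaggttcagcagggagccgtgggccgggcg
SUCLA2: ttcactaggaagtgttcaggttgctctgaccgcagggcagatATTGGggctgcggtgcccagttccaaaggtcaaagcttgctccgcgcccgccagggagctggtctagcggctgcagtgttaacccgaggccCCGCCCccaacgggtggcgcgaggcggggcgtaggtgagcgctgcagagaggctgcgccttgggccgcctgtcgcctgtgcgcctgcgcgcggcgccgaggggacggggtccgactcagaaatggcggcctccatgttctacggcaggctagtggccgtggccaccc
LCP1: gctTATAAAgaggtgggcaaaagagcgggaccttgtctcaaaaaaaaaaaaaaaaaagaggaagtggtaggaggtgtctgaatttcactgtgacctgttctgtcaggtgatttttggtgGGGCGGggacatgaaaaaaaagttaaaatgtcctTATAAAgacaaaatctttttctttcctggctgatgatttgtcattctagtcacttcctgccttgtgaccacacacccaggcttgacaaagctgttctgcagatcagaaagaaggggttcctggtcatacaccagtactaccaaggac
MED4: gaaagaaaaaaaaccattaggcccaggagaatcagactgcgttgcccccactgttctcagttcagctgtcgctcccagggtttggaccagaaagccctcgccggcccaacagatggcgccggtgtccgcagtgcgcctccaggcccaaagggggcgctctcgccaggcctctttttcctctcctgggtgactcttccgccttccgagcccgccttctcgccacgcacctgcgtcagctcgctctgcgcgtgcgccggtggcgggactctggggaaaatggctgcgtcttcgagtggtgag

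The letters searched were the CCAAT box (CCAAT), the GC box (GGGCGG), an ETS core (CCGGAAGT), an E2F core (TTTCGCGC), the TATA box (TATAAA) and the cyclic AMP response element (TGACGTCA). No matches overlapped in the printed windows. The GTF3A window held a GC box at base 219 and an ETS core at base 247, counted from the first base of the window. The SUCLA2 window held a CCAAT box at base 43 and a GC box at base 134, both on the other strand. LCP1 held TATA boxes at bases 4 and 154 and a GC box at base 120, and MED4 held none of these letters.

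Of the 56 detected members 53 had a window. These include ELF1 and CKAP2, whose windows lie away from the 5′ end of the gene. The position of the window was checked only for the members at either end of the range. The median GC content of these windows was 67.0%, beside 65.3% over 9102 windows of detected genes and 58.3% over all 27305 windows read. The CpG dinucleotide was present at more than 0.6 of its expected frequency in 51 member windows (96.2%), in 83.3% of windows of detected genes and in 48.9% of all windows. LCP1 was an exception, with a CpG ratio of 0.15 and a GC content of 42.7%. GC boxes stood in 73.6% of member windows, 70.2% of windows of detected genes and 44.6% of all windows. CCAAT boxes stood in 34.0%, 37.4% and 35.7%, ETS cores in 11.3%, 8.94% and 4.44%, and TATA boxes in 9.43%, 5.59% and 12.0%. E2F cores stood in 1.89%, 1.16% and 0.55%, and cyclic AMP response elements in 1.89%, 3.46% and 1.98%. A match describes letters and does not show a bound site.

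The members that make up the transcription machinery included several of the lowest ratios. Of 8, 6 were at least 2-fold lower, and the median was -1.52. Over all detected members that share was 46.4%, and over all detected genes 10.3%. These shares apply beside every role group below, and the groups are small and were not tested against each other. GTF3A encodes TFIIIA, the zinc finger protein that starts transcription of 5S ribosomal RNA genes. Its signal was 3591.9 in the wild type and 920.3 in the adapted line, a log2 ratio of -2.14 or 4.42-fold lower. POLR1D encodes a subunit shared by RNA polymerases I and III. Its brighter probe read 4654.1 and 1290.6 (3.84-fold lower, log2 ratio -1.94), and its other probe, at 858.6 and 402.6, had a ratio of -1.62. GTF2F2, the small subunit of TFIIF, read 1732.7 and 736.8 and was 2.87-fold lower, and SAP18, a subunit of the Sin3 histone deacetylase complex, read 326.8 and 208.2 and was 2.88-fold lower. CDK8, the kinase of the Mediator complex, read 222.8 in the wild type and was not well above background in the adapted line (144.7). At the main settings this makes it at least 2.98-fold lower, a bound that depends on the processing. INTS6, a subunit of the Integrator complex, read 473.8 and 329.7 and was 2.06-fold lower, although its dimmer probe, detected on the adapted array only, read 154.0 and 167.6. SUPT20H, a subunit of SAGA-type acetyltransferase complexes, had a ratio of -0.49. MED4, a subunit of the Mediator middle module, went the other way: it read 370.9 in the wild type and 613.9 in the adapted line, a log2 ratio of 0.67, the highest among the members.

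A mixed group of transcription factors, chromatin proteins and the acetyltransferase subunit gene NAA16 had all 7 detected members below 0, 5 of them at least 2-fold lower, with a median of -1.07. ELF1, an ETS family factor studied mainly in lymphoid cells, had the lowest ratio of all members. Its 1 probe read 635.6 in the wild type and 200.5 in the adapted line, 7.36-fold lower (log2 ratio -2.88). ING1, which encodes a reader of trimethylated histone H3, read 305.4 and 190.9 and was 3.16-fold lower. FOXO1, a forkhead factor inhibited by AKT, read 221.6 and 178.5 (log2 ratio -1.07, and -0.45 when no background correction was made). TSC22D1, a leucine zipper protein induced by TGF-beta, read 1143.0 and 629.3 at its brightest probe and had ratios from -1.49 to -1.17 over 3 probes. TFDP1 encodes DP1, the dimer partner of E2F factors, and read 2300.2 and 1246.2 (log2 ratio -1.01, and -0.80 at its other probe). The zinc finger gene ZMYM2 and NAA16, an auxiliary subunit of an N-terminal acetyltransferase, had ratios of -0.74 and -0.31.

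Of the 6 members of RNA decay and RNA binding, the 5 measured on both arrays lay between -0.81 and -0.26 and none of these was at least 2-fold lower. EXOSC8, a core subunit of the RNA exosome, read 757.6 and 552.7 (log2 ratio -0.78). DIS3, a nuclease of the exosome, read 175.1 in the wild type and 143.7, not well above background, in the adapted line and was at least 1.68-fold lower, a bound that does not settle whether it passed 2-fold. PAN3, a subunit of a poly(A) deadenylase, had a ratio of -0.37, the RNA-binding protein gene RBM26 (363.1 and 375.3) of -0.26, NUFIP1, which acts in the assembly of small nucleolar ribonucleoproteins, of -0.81, and N4BP2L2 of -0.76.

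Of the 4 DNA replication and repair members, 3 were at least 2-fold lower, with a median of -1.07. ERCC5 encodes XPG, the nuclease that cuts 3′ of the lesion in nucleotide excision repair, and read 721.8 and 398.7 (2.56-fold lower, log2 ratio -1.35). RFC3, a subunit of the clamp loader that places PCNA on DNA, read 692.7 and 436.9 (log2 ratio -1.10, and -0.83 at a second probe). HMGB1, an abundant DNA-bending protein, read 771.7 and 493.6 (log2 ratio -1.03, and -1.15 at its dimmer probe). RNASEH2B, a subunit of the nuclease that removes ribonucleotides from DNA, read 403.7 and 380.1, a ratio of -0.45 that equals the SD between probes of 1 gene.

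None of the 5 mitotic and centrosomal members was at least 2-fold lower, and their median was -0.50. CKAP2, a spindle-associated protein, read 436.1 and 523.2 at 1 probe and 349.7 and 424.1 at the other, with a log2 ratio of 0.06 at both. CPAP (listed also as CENPJ), a centriole length regulator, read 304.7 and 337.3 and had a ratio of -0.10. CHAMP1, which acts in chromosome alignment, was at -0.50, CDC16, a subunit of the anaphase-promoting complex, at -0.77, and the formin gene DIAPH3 at -0.74 at its brightest probe, with its other 3 probes from -1.47 to -1.16.

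The 3 nuclear transport receptors were lower to different extents. IPO5, an importin that carries ribosomal proteins and histones, read 1814.7 and 731.8 and was 3.04-fold lower (log2 ratio -1.60). XPO4, an exportin, read 757.1 and 507.1 (log2 ratio -0.95, and -1.07 at its other probe), and KPNA3, an importin alpha, read 439.7 and 390.4 (-0.54).

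Of the 7 members in the ubiquitin, ubiquitin-like and hydrolase group, 3 were at least 2-fold lower and the median was -0.95. UCHL3, a ubiquitin hydrolase, read 1030.0 and 452.4 and was 3.17-fold lower. ESD, a serine hydrolase gene, read 6789.8 and 3086.0 at its brighter probe (log2 ratio -1.04) and 747.2 and 349.9 at its other probe (-1.68). TPP2, a large cytosolic peptidase, read 200.9 in the wild type and 143.7, not well above background, in the adapted line. At the main settings it was at least 2.41-fold lower, a bound that depends on the processing. Its other probe was likewise detected in the wild type only. MYCBP2, a large ubiquitin ligase, was at -0.95, CUL4A, a cullin scaffold of ubiquitin ligases, at -0.76, UFM1, a ubiquitin-like modifier, at -0.63 and -1.09 at its probes, and the membrane-anchored ubiquitin-like protein gene UBL3 at -0.59.

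Mitochondrial enzymes were lower in all 3 cases, each at least 2-fold at its brightest detected probe. SUCLA2, a subunit of succinyl-CoA ligase in the citric acid cycle, read 822.4 and 311.2 (4.28-fold lower, log2 ratio -2.10) and at its other probe 491.4 and 299.0 (-1.32). MIPEP, a peptidase that trims imported mitochondrial proteins, read 502.3 and 237.5 and was 3.89-fold lower. VWA8, a mitochondrial ATPase-domain protein, read 220.9 and 163.1 and was 2.67-fold lower, with a ratio of -0.56 when no background correction was made. Its other probes, detected in the wild type only, read 193.5 and 150.9 (-1.34 with no bound set) and 166.5 and 157.2 (-0.54).

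Golgi, endosomal and lysosomal members had a median of -1.01, with 3 of 5 at least 2-fold lower. COG6 and COG3 are subunits of the same Golgi tethering complex. COG6 read 372.8 and 221.6 (3.06-fold lower). COG3 read 214.3 and 176.8 at 1 probe (2.02-fold lower) and 184.8 and 186.6 at its other probe, whose ratio was -0.32. ALG5, a glucosyltransferase of N-glycan synthesis, read 954.0 and 506.0 and was 2.49-fold lower, while LAMP1, a lysosomal membrane glycoprotein, was at -0.66 and VPS36, a subunit of ESCRT-II, read 312.1 and 322.0 (log2 ratio -0.27). The chaperone genes were HSPH1 and DNAJC3. HSPH1, a cytosolic nucleotide exchange factor for HSP70, read 1956.1 and 1812.0 (-0.18). DNAJC3, an endoplasmic reticulum co-chaperone, read 162.8 and 141.0, was detected in the wild type only and was at least 1.32-fold lower, which does not limit how much lower it was.

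The remaining members had matrix, cytoskeletal, signalling and membrane roles, and 2 of the 6 detected were at least 2-fold lower. ITM2B, a transmembrane protein gene, read 2759.1 and 1118.1 and was 2.75-fold lower, and STK24, a sterile-20 type kinase, read 3199.7 and 1515.0 and was 2.24-fold lower. AKAP11, which anchors protein kinase A, and FNDC3A were at -0.77 and -0.45. TPT1, a translationally controlled protein gene, read 24407.2 and 19033.1 and had ratios of -0.21 and -0.29. LCP1, the actin-bundling plastin of leukocytes, read 244.3 in the wild type and 349.1 in the adapted line (1.44-fold higher), so that it was, with MED4 and CKAP2, 1 of the 3 members above 0. POSTN, the matrix protein periostin, read 137.5 and 124.1 at 1 probe and 125.2 and 131.9 at the other and was not detected on either array.

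Along the chromosome the lower ratios were not confined to 1 end. The median of the members was -0.99 from ZMYM2 to HSPH1 (6 of 12 at least 2-fold lower), -1.07 from N4BP2L2 to TSC22D1 (7 of 13), -0.64 from NUFIP1 to DIAPH3 (6 of 16) and -0.95 from DIS3 to CHAMP1 (7 of 15). Over all detected members 46.4% were at least 2-fold lower, beside 10.3% of all detected genes. The segments were not tested against each other. The 3 members above 0 all lay in the segment from NUFIP1 to DIAPH3. The 144 other detected genes of chromosome 13 lay between and beside the members and had a median of -0.73, with 108 below 0, 47 at least 2-fold lower and 9 at least 2-fold higher. In the same segments their medians were -0.62, -1.06, -0.78 and -0.52. The 5 lowest of those measured on both arrays were STARD13 (1168.0 and 177.7, log2 ratio -4.27), GGACT (-2.50), the antisense RNA FGF14-AS2 (-2.35), PCCA, a subunit of propionyl-CoA carboxylase (-2.32), and BIVM (-2.16). The 5 highest were AMER2, a Wnt pathway regulator (281.9 and 1818.8, log2 ratio 3.14), RUBCNL (1.49), the receptor kinase feedback inhibitor SPRY2 (1.28), SHISA2 (1.10) and TRIM13 (1.07). In 7 of the other genes, detected on the adapted array only, the bound lay on the wrong side of 0. They have no fold and are left out of the counts, and they enter medians with that bound. Members and other genes share the arrays and the contrast, and the difference between their medians was not tested.

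The running median of 11 successive genes lay below 0 in all 190 windows of the chromosome, which overlap and so are not independent. On the other chromosomes the share of windows below 0 ran from 27.7% (chromosome 9) to 84.7% (chromosome X). The chromosome 13 windows include the members, picked for being lower on these same arrays. On chromosome 13 the running median was lowest, at -1.59, in the window from CLYBL to BIVM, which holds TPP2. It was highest, at -0.27, in the window from WDFY2 to HNRNPA1L2, which holds VPS36 and CKAP2. From DCLK1 to AKAP11, 27 successive detected genes had a ratio below 0, 10 of them members. Such runs were not counted on other chromosomes. With each array scaled to a common median, or with no scaling between arrays, 187 of the 190 windows stayed below 0.

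**Figure D3:**
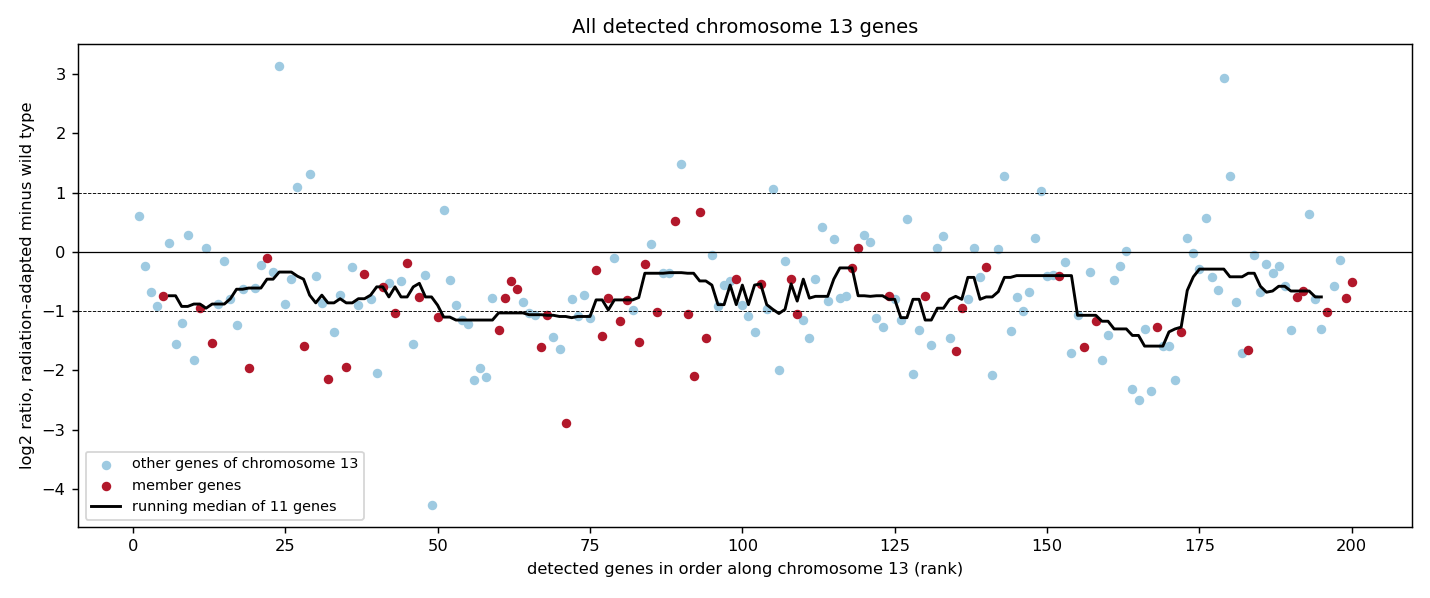
Log2 ratio (y axis) of the 200 detected chromosome 13 genes by rank along the chromosome (x axis). Members are dark and other genes light, and the line is the running median of 11 genes, which stays between -1.59 and -0.27, while single genes reach from -4.27 (STARD13) to 3.14 (AMER2).

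Set beside the 22 other chromosomes with named genes, chromosome 13 had the lowest median ratio. Its 200 detected genes had a median of -0.77 and 36.5% of them were at least 2-fold lower. Chromosome 14 followed with a median of -0.30 and 17.5%, then chromosome X with -0.23 and 13.1%, and the highest median was 0.24 on chromosome 11. Of the chromosome 13 windows of 11 genes, 74.7% had a median below -0.5, against 38.9% on chromosome 14 and 23.3% on chromosome 3. Single windows reached as low elsewhere, with -1.60 on chromosome 19 and -1.46 on chromosome 3. Without chromosome 13, the 11152 other genes had a share of 9.82% at least 2-fold lower. The members, picked because a stretch of chromosome 13 was seen lower on these same arrays, are among the 200 genes. The rank of the chromosome is therefore a description.

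**Figure D4:**
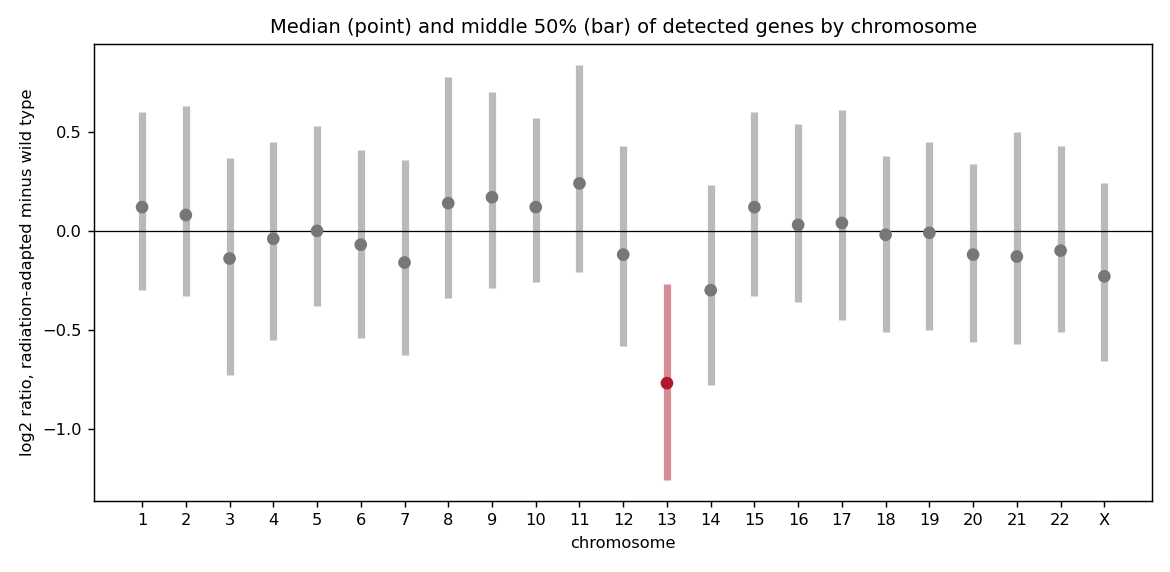
Median log2 ratio (points, y axis) and middle 50% of detected genes (bars) for each chromosome (x axis). Chromosome 13, in red, has the lowest median at -0.77, and the next lowest is chromosome 14 at -0.30.

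Many members work beside proteins encoded on other chromosomes, and 21 of them were set beside their partners in 16 complexes or functional groups. This is not every member that is a subunit of a complex. SAP18 (-1.53), SUPT20H (-0.49), PAN3 (-0.37) and NAA16 (-0.31) were among those not compared with partners. Each gene entered with its brightest detected probe, and some of these places depend on that choice. Of 21 chromosome 13 subunits, 19 had a ratio below the median of their partners and 11 had the lowest ratio of their group. All of these subunits are members, picked for being lower on these same arrays, and the partners were not picked by that rule. The order of subunits and partners is therefore a description and gives no separate support. Over the 145 detected partners the median was 0.06, with 4 (2.76%) at least 2-fold lower and 6 (4.14%) at least 2-fold higher. Over all detected genes these shares were 10.3% and 12.4%. The ratios of the partners also varied less, with an SD of 0.59 beside 1.0 over all detected genes. The chromosome 13 subunits had a median of -1.01, and 11 (52.4%) were at least 2-fold lower. In the COG complex, COG6 (-1.61) and COG3 (-1.01) stood below the 6 other subunits, which ran from COG8 at -0.84 to COG7 at 0.87. The other COG3 probe, at -0.32, lay above COG8. GTF3A (-2.14) stood below the 10 other factors of its group, from BRF1 at -0.88 to GTF3C4 at 1.18. POLR1D (-1.94) stood below 19 other polymerase I and III subunits, which had a median of -0.36 and ran from POLR3G at -1.23 to POLR2K at 0.67. GTF2F2 was at -1.52 and its partner GTF2F1 at 0.06.

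The same order held in other groups. At its brightest probe CDC16 (-0.77) stood below 12 other anaphase-promoting complex subunits, from ANAPC11 at -0.58 to ANAPC13 at 0.67. Its other probes were at -1.29 and at -0.49, the latter above ANAPC11. RFC3 (-1.10) stood below RFC2 at -0.58 and RFC1 at 0.41. INTS6 (-1.04) stood below 12 Integrator subunits from INTS12 at -0.90 to INTS3 at 1.17. ERCC5 (-1.35) stood below 9 other excision repair genes from ERCC2 at -0.88 to RAD23B at 1.02. Of 24 nuclear transport receptors IPO5 was the lowest and XPO4 the next, with KPNA3 the fifth, and the 21 partners ran from XPOT at -0.86 to KPNA6 at 1.22. SUCLA2 (-2.10) stood below SUCLG2 at -1.09 and SUCLG1 at -0.37, both also below 0.

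Other subunits did not stand at the bottom of their groups. In the Mediator complex CDK8 was the lowest of 28 detected genes, and MED4 lay above the partners' median of 0.21, between MED30 at -0.94 and MED29 at 1.22. EXOSC8 followed EXOSC5 at -0.82, with EXOSC2 the highest at 0.91, and DIS3, at a bound of -0.75, has no settled place. RNASEH2B followed RNASEH2A at -0.56, with RNASEH2C at 0.55. UFM1 (-0.63) followed DDRGK1 at -0.98, with CDK5RAP3 the highest at 0.36. The other UFM1 probe, at -1.09, lay below DDRGK1. CUL4A (-0.76) followed CUL9 at a bound of -1.45, with CUL5 the highest at 0.85. VPS36 (-0.27) lay above its partners' median of -0.42, between SNF8 at -0.79 and VPS25 at -0.05. Among the partners MED13, MED17, POLR1G and KPNA5 were detected on the adapted array only and enter with a bound, and BDP1 has no fold and enters with its bound. These groups share arrays and were not tested.

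**Figure D5:**
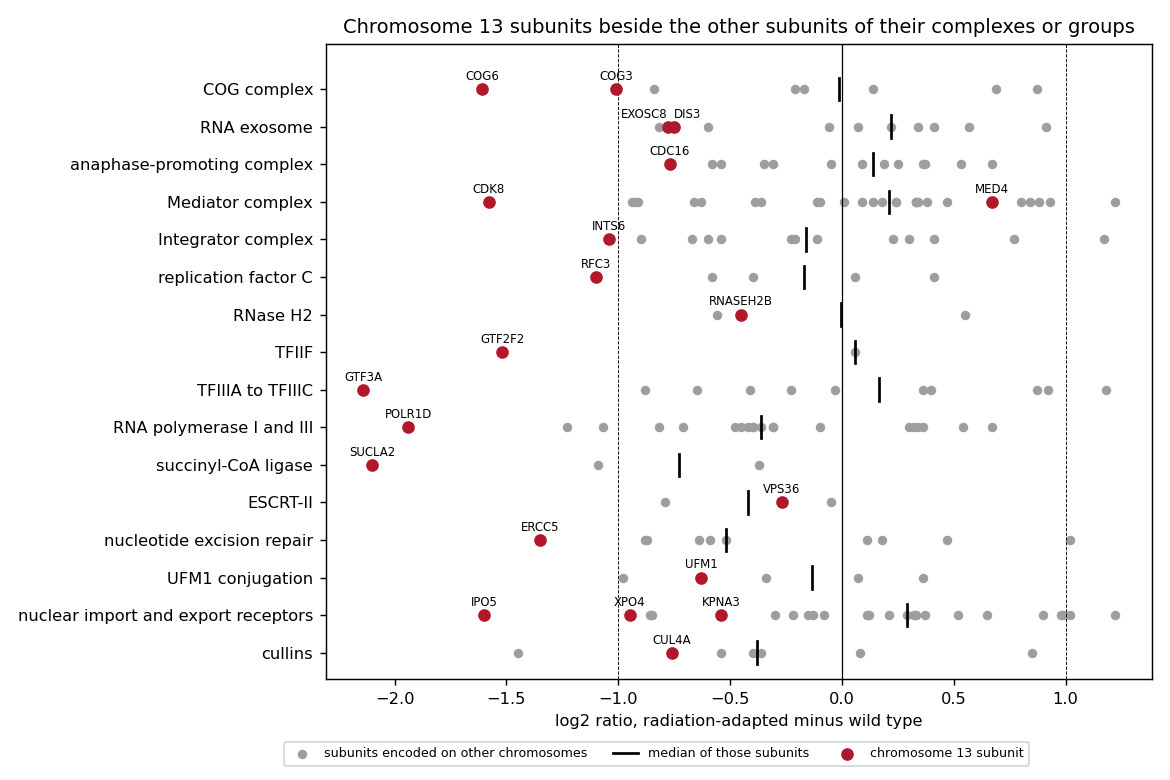
Log2 ratio (x axis) of the subunits of 16 complexes or groups (y axis). Red points are chromosome 13 subunits, grey points the other subunits, and black ticks the median of the grey points. In 19 of 21 cases the red point lies left of the tick, with MED4 and VPS36 as the exceptions. The red genes are members, picked for being lower on these same arrays.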

How the data were processed

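RNA of 1 wild-type and 1 radiation-adapted MHH-ES-1 culture was profiled on Illumina bead arrays. Per the labels' protocols, RNA was extracted with Trizol and amplified into biotin-labelled cRNA. Per the file headers, the deposited table gives a mean bead intensity and a detection p-value for each of 47323 probes. Its intensities carry no background subtraction or scaling, as the values show. The authors also deposited processed intensities, with no method given in the sources used here. They are used as an alternative.

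Background correction, offset of 16, quantile normalization and log2 were done with limma 3.58.1 (neqc) in R 4.3.3, and the gene step with Python 3.11.15. Both steps were tested on simulated data. A gene took the detected probe (detection p-value under 0.01) with the highest mean. A gene detected on 1 array has a bound, with the dim value set to the higher of its own and the lowest detected signal of that array (log2 5.60 wild type, 5.36 adapted). The annotation named 1 gene for 30113 probes. The others were left out. Gene order came from RefSeq (GRCh38.p14), and positions are printed for the RefSeq promoter windows alone, because the array files name no build. Promoters of chromosome 8 were not used.

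The members, role groups and complexes were chosen with earlier results of these data known. All members may be named. Both array values are given for the 8 lowest and 8 highest, for members detected on 1 array, and for others where their group turns on them. For other chromosome 13 genes the 5 lowest and 5 highest on both arrays are named, and for each complex its lowest and highest partner. With 1 array per group no p-value was computed, and the number of arrays limits the precision.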

Additional observations from a re-analysis of the deposited data

How the results depend on the processing

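No paired analysis was possible because each group had 1 array, and no replicate could be left out. The alternatives were median scaling, no scaling between arrays, no background correction, an offset of 50, a detection p-value under 0.05, detection on both arrays, no detection filter, the mean of detected probes, the authors' processed values, and a 1.5-fold rule. Of 500 member ratios recomputed, 483 moved by less than 0.45, the SD that separates probes of a gene, and 17 by more, 13 of them with no background correction. None of the 26 members at least 2-fold lower changed sign. The bound of TPP2 was -0.82 with an offset of 50, -0.97 with no scaling and -0.46 with no background correction, each under 2-fold. The bound of CDK8 was -1.06, -1.30 and -0.61 at these settings. With a detection p-value under 0.05 the bounds were -1.56 for TPP2 and -1.87 for CDK8. Under median scaling and no scaling, which moved the median of all genes to 0.16 and 0.23, CPAP turned to 0.16 and 0.23, and with no scaling NAA16, VPS36 and RBM26 turned to 0.04, 0.07 and 0.07. The median of the members ranged from -1.02 with the authors' processed values to -0.56 with no background correction.

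Without background correction, which compresses ratios of dim probes, 14 members and 23 other chromosome 13 genes were at least 2-fold lower, beside 4.91% of all genes. Members that then fell under 2-fold included COG6 (-0.95), ING1 (-0.85), SAP18 (-0.84) and FOXO1 (-0.45). FOXO1 was also under 2-fold with no scaling (-0.74) and with an offset of 50 (-0.76). At 1.5-fold, 40 members and 79 other genes of the chromosome were lower, beside 21.1% of all genes, and 1 member (MED4) was higher. With no detection filter the median of the other chromosome 13 genes was -0.16 and that of the chromosome -0.30, since undetected probes entered. Chromosome 13 had the lowest median of 23 chromosomes under all 9 of these alternatives that recompute ratios, a check added after the data were seen, and from 17 to 19 complex subunits lay below their partners' median. The rank and the subunit counts rest on the same arrays by which the members were picked. A window of 21 genes gave running medians from -1.35 to -0.36.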

Other observations

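Among the chromosome 13 genes that are not in the member list, 14 with non-coding or pseudogene symbols were detected, 4 of them on both arrays. The long non-coding RNA DLEU1 read 618.0 in the wild type and 267.5 in the adapted line (log2 ratio -1.99), and INTS6-AS1, which lies beside the member INTS6, was detected in the wild type only (194.2 and 149.2, log2 ratio of -1.15 as a bound). The median of the 14 was -0.18, beside -0.78 for the 130 protein-coding genes outside the member list. Most of the 14 were dim and enter with a bound, and 3 have no fold because their bound lay on the wrong side of 0. Their median log2 level in the wild type was 5.31, beside 7.35, so these medians do not compare genes of like signal. The 4 measured on both arrays were ATP5F1EP2 (-0.25), DLEU1 (-1.99), ST13P4 (-0.15) and FGF14-AS2 (-2.35). The difference was not tested.

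The basement membrane collagen genes COL4A1 and COL4A2 are neighbours on the distal part of the chromosome, and they were chosen here after their values were seen. COL4A1 read 136.9, not well above background, in the wild type and 520.0 in the adapted line, at least 7.65-fold higher. COL4A2 read 151.1 and 245.2, at least 2.42-fold higher. On chromosome 13, 9 genes (4.5% of those detected) were at least 2-fold higher, beside 12.4% of all detected genes. Of these 9, 4 were counted by such a bound, the others in that group being SOX21 and WASF3.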
